A study of Mus musculus with 39 samples.

Results

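The genes described here are 10 that mark the progenitors of fat cells: Pdgfra, Pdgfrb, Dlk1, Dpp4, Pi16, Cd34, Zfp423, Ly6a, Thy1 and Cd24a. They were chosen by name, as every probe whose gene name on the array was one of these, which gave 15 of 40628 probes and 10 of 29411 gene names. Each gene was followed by its brightest probe over all arrays, and its other probes served as a check. RNA from epididymal adipose tissue, the visceral fat pad of the male mouse, was hybridised in one colour to 39 Agilent arrays. The mice were C57BL/6J, weaned at 3 to 4 weeks of age and split into 5 groups of 30 animals, of which 5 were taken from each group every 3 weeks. The low-fat control group (LFC, 11 arrays) ate a diet with 10% of its calories from fat. The high-fat control group (HFC, 10 arrays) ate a diet with 60% of its calories from fat and more sucrose. The groups HF5, HF20 and HF75 (6 arrays each) ate the HFC diet supplemented with KAL-1, an aqueous plant formulation, at 5, 20 or 75 µg. Each array was 1 diet at 1 time point: days 1 (LFC only), 6, 10 and 14 and week 0 in LFC and HFC, and weeks 3, 6, 9, 12, 15 and 18 in all 5 diets. Day 14 and week 0 were the same time on different arrays. The labels do not say which or how many animals went into an array, so time points stand in for replicates of a diet.

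White fat is renewed from progenitor cells that lie in the stroma and along the walls of blood vessels. These cells carry receptors for platelet-derived growth factor (Pdgfra and Pdgfrb), a coat of surface proteins by which they are sorted (Cd34, Ly6a, Thy1 and Cd24a), and regulators that hold them back from or push them into the fat cell lineage (Dlk1 and Zfp423). Dpp4 and Pi16 mark a reservoir of less committed cells in the tissue's connective sheaths, which give rise to cells nearer to the adipocyte. None of the markers belongs to progenitors alone: Pdgfrb is also made by mural cells of vessels, Cd34 and Ly6a by endothelium, Thy1 and Ly6a by lymphocytes, Dpp4 by mesothelium and T cells, and Cd24a by several blood cells.

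The probes are DNA strands of 60 bases, and their sequences came from the deposited scanner files. The Dlk1 probe is printed because Dlk1 was the only one of the 10 whose brightest probe differed between early and late time points at an unadjusted p under 0.05, and that rests on this 1 probe. The second Pdgfra probe is printed because it differed from the brightest one in a comparison given further on. Also shown is the run of 20 bases, in capitals, that 2 of the 3 Dpp4 probes share, so that those 2 probes are not separate evidence.
Dlk1 probe: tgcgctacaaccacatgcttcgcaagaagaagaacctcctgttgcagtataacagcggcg
Pdgfra second probe: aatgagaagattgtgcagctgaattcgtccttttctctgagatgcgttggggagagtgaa
Dpp4 shared run: CAAAGCACTGACTTCTAAGT

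Values are log2 of the processed signal minus the 75th percentile of log2 signals on the same array, so 0 is as bright as the spot at that percentile. A spot brightness depends on its probe, so levels are compared between arrays for a gene and never between genes. On 37 arrays 53.7% to 79.6% of spots were well above background, but 97.1% were on LFC week 3 and 94.5% on HFC week 12. The LFC week 3 array had 16431 outlier spots and HFC week 12 had 10531, against 21 to 387 on the others. LFC week 3 also had a median rank correlation with the other arrays of 0.694, below the 0.902 to 0.952 of the 37, while that of HFC week 12 was 0.938. Results that rest on these arrays are given with and without them. On LFC week 3 the spots of Pdgfra, Dpp4 and Zfp423 were outliers and gave no value, and the same held for Pi16 on LFC day 10. The Cd34 spot was saturated on LFC day 14 and LFC week 0, where its value is a lower bound, and the Dlk1 spot was not well above background on HF5 week 9. All 10 adipocyte markers checked (the list includes Adipoq, Fabp4 and Plin1) were well above background on all 39 arrays. Markers of the adjoining epididymis epithelium ranged over arrays from a mean of -8.03 to 3.14, with 1 to 10 of the 10 markers well above background.

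The receptor genes come first. Pdgfra encodes the receptor that marks most adipose progenitors and fibroblasts. In LFC it ran from -0.03 at day 6 through a median of 0.69 to 1.80 at week 9, and in HFC from -0.22 at day 6 through a median of 0.66 to 2.55 at week 9. With KAL-1 the lowest value was -0.04, on HF5 week 6, and the highest 2.84, on HF75 week 9. The ranges of the 5 diets overlapped. The second Pdgfra probe followed the first only in part (r = 0.66 over 37 arrays).

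Pdgfrb, the receptor shared by progenitors and mural cells, ran in LFC from 1.74 at day 1 through a median of 3.00 to 4.05 at day 14. In HFC it ran from 1.14 at week 3 through a median of 3.04 to 4.32 at week 9. In HF5 it lay between 2.12 and 4.12, in HF20 between 1.42 and 3.31 and in HF75 between 1.75 and 4.02. The diets again overlapped. The low values sat together on arrays with little endothelial RNA, as set out below.

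Dlk1 (Pref-1) is a membrane protein with EGF-like repeats that keeps preadipocytes from differentiating, and it is an imprinted gene expressed from the paternal copy. It had the widest spread of the 10 after Pi16, with an SD of 1.19 over 39 arrays. Its probe was also the dimmest of the 10, with a mean of -3.14, and the part of background in this spread was not tested. It ran in LFC from -4.81 at week 12 through a median of -2.09 to -0.41 at day 1 and in HFC from -4.44 at week 3 through a median of -2.33 to -2.16 at week 6. In HF20 it ran from -5.87 at week 18 through a median of -4.32 to -2.97 at week 15, with 3 arrays at -3.32 to -2.97 and the other 3 at -5.87 to -5.32. HF5 lay between -4.13 and -2.67 and HF75 between -4.86 and -2.58. The highest value of all was LFC day 1, the youngest tissue, and the lowest HF20 week 18.

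Zfp423, a zinc finger protein that commits cells to the adipocyte lineage by raising Pparg, was the steadiest of the 10 (SD 0.48). It ran in LFC from -2.48 at week 12 through a median of -1.45 to -0.86 at day 14, in HFC from -2.12 at day 10 through a median of -1.42 to -0.69 at day 14 and over the KAL-1 arrays from -2.26 to -0.42. Its 2 probes correlated at r = 0.53 over 37 arrays, so much of its small spread was not shared by both.

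Of the reservoir markers, Dpp4 encodes the membrane peptidase that also inactivates incretin hormones. It ran in LFC from -2.10 at week 18 through a median of -0.65 to 0.26 at week 6, and in HFC over the narrower range from -0.80 at week 18 through a median of -0.20 to 0.61 at week 9. Its lowest values were -3.16 on HF5 week 6, -2.58 on HF75 week 3, -2.10 on LFC week 18 and -1.96 on HF20 week 3. On these 4 arrays the mesothelium list was also low, at -5.70, -2.42, -3.19 and -2.35, against -0.96 or more on 32 arrays. The 3 other arrays with a low mesothelium list, LFC, HFC and HF75 at week 6, had it at -4.09, -4.33 and -5.77, with Dpp4 at 0.26, -0.79 and 0.05. A list of visceral depot genes, which shares Upk3b and Wt1 with it, fell as low as -4.95 in LFC and -4.82 in HFC. Its lowest values were -6.10 in HF5, -6.29 in HF75 and -3.55 in HF20. LFC, HFC, HF5 and HF75 at week 6 enter the week 6 values of all the genes, and the part of this in them was not tested. The part of mesothelial RNA in the Dpp4 values was not tested. Pi16, peptidase inhibitor 16, had the largest spread (SD 1.28). It ran in LFC from -1.18 at week 3 through a median of 0.41 to 4.06 at week 6 and in HFC from 0.04 at week 15 through a median of 0.82 to 2.26 at week 9, and the HFC values all lay inside the LFC range. HF75 reached 3.37 at week 6 and -1.74 at week 15.

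Among the surface proteins, Cd34, a sialomucin of progenitors and endothelium, ran in LFC from 4.14 at week 12 through a median of 5.46 to 6.51 at week 9 and in HFC from 5.19 at week 12 through a median of 5.52 to 6.61 at week 9, with the order at the top of LFC unsettled since 2 of its values are lower bounds. Ly6a (Sca-1), an anchored surface protein, ran in LFC from 0.33 at week 12 through a median of 2.26 to 3.41 at week 6 and in HFC from 1.64 at day 14 through a median of 2.57 to 3.78 at day 10. Its highest values were 4.48 on HF75 week 15 and 4.41 on HF75 week 6. Cd24a, a small anchored glycoprotein on early progenitors, ran in LFC from -2.19 at week 3 through a median of 1.53 to 2.25 at day 1 and in HFC from -1.13 at week 3 through a median of 1.05 to 2.53 at week 6. Its LFC low point was the week 3 array, and the lowest LFC value without that array was 0.83, at week 18. Thy1 (CD90), the stromal surface protein, is given array by array with the comparisons.

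**Figure D1:**
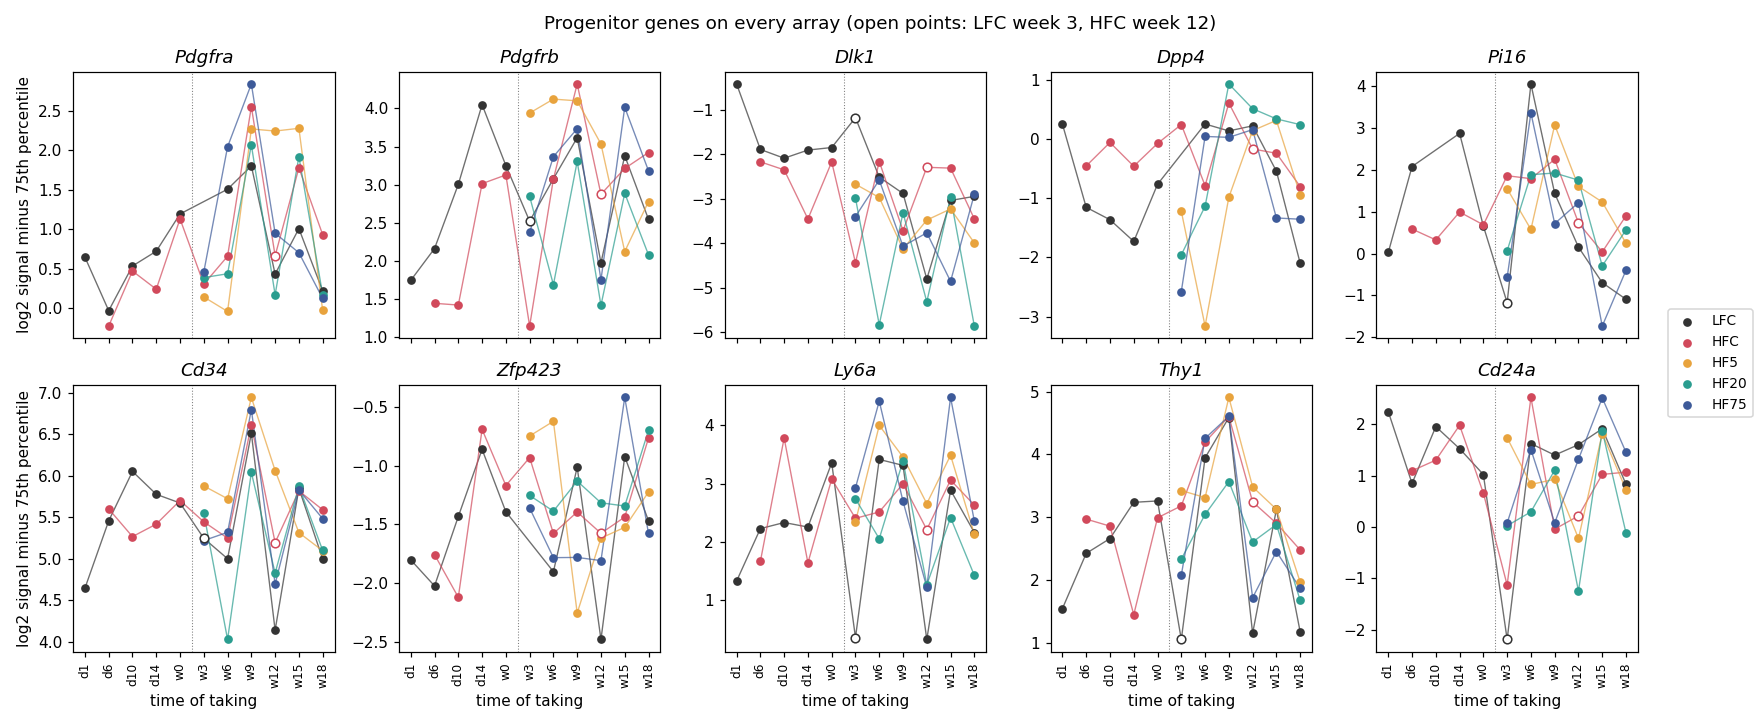
Level of each progenitor gene on every array, as log2 signal minus the 75th percentile of the array (vertical axis, a scale of its own in each panel), against the time of taking (horizontal axis, days 1 to 14 and weeks 0 to 18; the dotted line separates week 0 from week 3). Points are single arrays, lines join the arrays of 1 diet, and open points are LFC week 3 and HFC week 12. Among weeks 3 to 18 Cd34 and Thy1 were highest at week 9 in all 5 diets, and Dlk1 was highest on LFC day 1 at -0.41.

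The first comparison asked what the high-fat, high-sucrose diet did to progenitor genes, over the 10 time points that have both diets. Of the 10 genes, 7 were higher in HFC and 3 lower, none past the adjusted threshold of 0.05. The same fit called 0% of 29168 probes, and at an unadjusted p under 0.05 it held 889 probes (3.05%) and none of the 10 genes. The median difference of the genes was 0.12 and that of all probes 0.03. Without LFC week 3 and HFC week 12 the split turned to 4 higher and 6 lower, with a median of -0.04 (all probes -0.01). Adjusted p-values of the genes were all 0.998 (limma, time point as a block).

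Dpp4 was nearest to a difference between the diets. Dpp4 in LFC was 0.25 at day 1, -1.15 at day 6, -1.36 at day 10, -1.73 at day 14, -0.76 at week 0, 0.26 at week 6, 0.14 at week 9, 0.23 at week 12, -0.54 at week 15 and -2.10 at week 18. Dpp4 in HFC was -0.45 at day 6, -0.06 at day 10, -0.46 at day 14, -0.07 at week 0, 0.25 at week 3, -0.79 at week 6, 0.61 at week 9, -0.17 at week 12, -0.24 at week 15 and -0.80 at week 18. HFC was the higher of the pair at 7 of 9 time points, and the exceptions were weeks 6 and 12. The mean difference was 0.51 (SE 0.27, 95% interval -0.08 to 1.10, unadjusted p = 0.0839, limma). Without LFC week 3 and HFC week 12 it was 0.62, with an unadjusted p of 0.0346 and an adjusted p of 0.695. The overlapping second probe gave 0.64 (unadjusted p = 0.0484, limma) and the last 0.24 (unadjusted p = 0.579). The last was a dim probe, well above background on 23 of 39 arrays.

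Thy1 had the next smallest p. Thy1 in LFC was 1.54 at day 1, 2.42 at day 6, 2.66 at day 10, 3.24 at day 14, 3.26 at week 0, 1.05 at week 3, 3.95 at week 6, 4.59 at week 9, 1.15 at week 12, 3.12 at week 15 and 1.17 at week 18. Thy1 in HFC was 2.97 at day 6, 2.86 at day 10, 1.45 at day 14, 2.99 at week 0, 3.18 at week 3, 4.2 at week 6, 4.60 at week 9, 3.24 at week 12, 2.90 at week 15 and 2.48 at week 18. HFC was higher at 7 of 10 time points, by far most at weeks 3 and 12, which hold the arrays that stand apart. The mean difference over 10 time points was 0.43 (SE 0.35, unadjusted p = 0.242, limma), and it was 0.0049 without those 2 arrays and 0.67 (unadjusted p = 0.0467) without day 14. The low LFC value at week 12 came with an endothelium list at 1.07, against 3.06 in HFC, and the part of this in the difference was not tested. Fewer cells of a type and less RNA per cell cannot be told apart in these bulk samples.

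The other genes had intervals that spanned 0 on both sides. Pdgfra differed by 0.09 (95% interval -0.39 to 0.57), Pdgfrb by -0.25 (-0.86 to 0.36) and Cd34 by 0.12 (-0.29 to 0.53). The interval for Dlk1 was -1.27 to 0.58 and that for Pi16 was -0.97 to 1.32. A fall of about a log2 unit in either gene, or a rise of that size in Pi16, could not be told from none. Ly6a differed by 0.33 (-0.37 to 1.04), Zfp423 by 0.11 (-0.35 to 0.58) and Cd24a by -0.18 (-0.79 to 0.42). Without LFC week 3 and HFC week 12 Ly6a turned to -0.072, Cd34 to -0.0080 and Pi16 from 0.17 to -0.30, and Zfp423 came to 0.013. For Cd34 the day 14 and week 0 differences are upper bounds, since the LFC spots were saturated there.

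Confined to weeks 3 to 18, with all 5 diets in 1 fit, 8 genes were higher in HFC than in LFC and 2 lower, again with 0% of 31450 probes called. The median of the genes was 0.33 and that of all probes 0.06, and without LFC week 3 and HFC week 12 the split was again 8 and 2, with a median of 0.27. Thy1 was higher in HFC by 0.93 (SE 0.34, 95% interval 0.22 to 1.64), in 5 of 6 weeks, with an unadjusted p of 0.0124 that did not survive adjustment over all probes (adjusted p = 1.00, limma). The difference was 0.60 (unadjusted p = 0.104) without LFC week 3 and HFC week 12. The second Thy1 probe gave 0.61 (unadjusted p = 0.0729). The 8 genes other than Thy1 and Pi16 gave Pdgfra 0.31, Pdgfrb 0.16, Dlk1 -0.17, Dpp4 0.38, Cd34 0.36, Zfp423 0.23, Ly6a 0.56 and Cd24a -0.25, with unadjusted p of 0.185 to 0.775. Without those 2 arrays Ly6a came down to 0.056 and Pdgfrb to 0.037, and Cd24a was at -0.79.

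Pi16 was next. Pi16 in LFC was 0.02 at day 1, 2.08 at day 6, 2.88 at day 14, 0.66 at week 0, -1.18 at week 3, 4.06 at week 6, 1.44 at week 9, 0.15 at week 12, -0.70 at week 15 and -1.10 at week 18. Pi16 in HFC was 0.59 at day 6, 0.33 at day 10, 0.99 at day 14, 0.69 at week 0, 1.86 at week 3, 1.79 at week 6, 2.26 at week 9, 0.73 at week 12, 0.04 at week 15 and 0.90 at week 18. LFC at week 6 stood above every HFC array, while in the other 5 weeks HFC was the higher of the pair. The week 3 to 18 difference was 0.82 (95% interval -0.37 to 2.01, unadjusted p = 0.169, limma). It was 0.73 (unadjusted p = 0.269) without LFC week 3 and HFC week 12, 0.37 without week 3, and 1.43 (unadjusted p = 0.00186, adjusted p = 1.00) without week 6. The 14 genes of the reservoir list (among them Ebf2, Fbn1 and Mfap5) were all higher in HFC, with a median of 0.71 in these weeks and none past the threshold, and 15 of the 17 general stromal fibroblast genes were higher, with a median of 0.68. The committed preadipocyte list was more even, with 8 of 13 higher and a median of 0.24. Without the 2 arrays that stand apart the reservoir list kept 14 of 14 higher, with a median of 0.58, while the stromal median was 0.18 (13 of 17 higher) and the committed median -0.12. Over all 10 time points and without these arrays 10 of 14 reservoir genes were higher, with a median of 0.11.

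**Figure D2:**
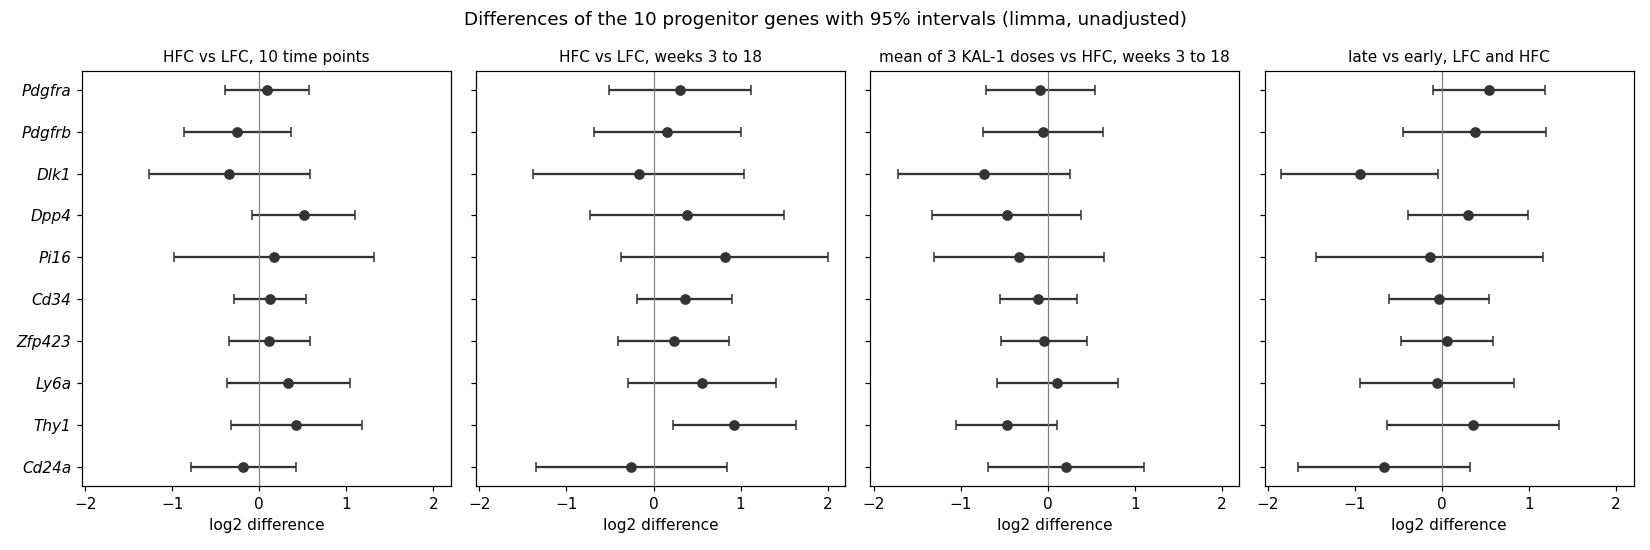
Difference of each progenitor gene on the log2 scale (horizontal axis) for HFC minus LFC over 10 time points, HFC minus LFC over weeks 3 to 18, the mean of the 3 KAL-1 groups minus HFC over weeks 3 to 18, and late minus early in LFC and HFC. Points are limma estimates and bars are unadjusted 95% intervals. The bars leave 0 out for Thy1 in the second panel (0.22 to 1.64) and Dlk1 in the fourth (-1.84 to -0.05), and no gene passed the adjusted threshold in any panel.

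The KAL-1 groups were compared with HFC over weeks 3 to 18, to ask whether the formulation changed what the high-fat diet did. These comparisons share the HFC arrays with each other and with the diet comparison, so a chance high or low HFC array enters all of them. No progenitor gene passed the adjusted threshold at any dose or in the mean of the doses, and each fit called 0% of 31450 probes. In HF5, 5 genes were higher and 5 lower, with a median of 0.06 (all probes -0.03). In HF20, 2 were higher and 8 lower, with a median of -0.35 (all probes -0.07), and in HF75 4 were higher and 6 lower, with a median of -0.13 (all probes -0.01). The number of probes at an unadjusted p under 0.05 was 1076 (3.42%) for HF5, 1523 (4.84%) for HF20 and 472 (1.50%) for HF75.

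At 5 µg the genes nearest to a difference were Dpp4 and Pdgfrb. Dpp4 in HF5 was -1.22 at week 3, -3.16 at week 6, -0.98 at week 9, 0.14 at week 12, 0.32 at week 15 and -0.94 at week 18. Pdgfrb in HF5 was 3.94 at week 3, 4.12 at week 6, 4.10 at week 9, 3.53 at week 12, 2.12 at week 15 and 2.78 at week 18. Pdgfrb in HFC was 1.44 at day 6, 1.42 at day 10, 3.01 at day 14, 3.13 at week 0, 1.14 at week 3, 3.08 at week 6, 4.32 at week 9, 2.87 at week 12, 3.21 at week 15 and 3.42 at week 18. Dpp4 was lower than HFC in 4 of 6 weeks, most at week 6, and Pdgfrb was higher in 3 of 6. Dpp4 differed by -0.78 (95% interval -1.83 to 0.26, unadjusted p = 0.136, limma). Pdgfrb differed by 0.42 (-0.42 to 1.27, unadjusted p = 0.309), which became -0.049 without week 3, where HFC was at 1.14 on an array with an endothelium list of 1.47 against 3.74 in HF5. Dpp4 was at -0.47 without week 6. For the remaining 8 genes the differences were Pdgfra -0.0038, Dlk1 -0.35, Pi16 0.12, Cd34 0.19, Zfp423 -0.052, Ly6a 0.38, Thy1 -0.064 and Cd24a 0.36, with unadjusted p of 0.372 to 0.992.

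At 20 µg Dlk1 and Thy1 stood out from the rest without passing the threshold. Dlk1 in HF20 was -2.98 at week 3, -5.84 at week 6, -3.32 at week 9, -5.32 at week 12, -2.97 at week 15 and -5.87 at week 18. Dlk1 in HFC was -2.17 at day 6, -2.35 at day 10, -3.45 at day 14, -2.17 at week 0, -4.44 at week 3, -2.16 at week 6, -3.72 at week 9, -2.29 at week 12, -2.31 at week 15 and -3.45 at week 18. HF20 was below HFC in 4 of 6 weeks and below all 10 HFC arrays at weeks 6, 12 and 18. The difference was -1.32 (SE 0.59, 95% interval -2.53 to -0.11, unadjusted p = 0.0342, adjusted p = 0.780, limma). It was -0.71 with normexp background correction, -1.87 without week 3 and -0.85 without week 6, and without LFC week 3 and HFC week 12 it was -1.02 (unadjusted p = 0.097). The same 3 HF20 arrays had endothelium lists of 1.43, 0.84 and 1.54, against 3.74, 3.68 and 3.51 at weeks 3, 9 and 15, and the part of this in the Dlk1 difference was not tested. On the 6 arrays of weeks 3 to 18 with a low endothelium list, over all diets, Dlk1 ran from -5.87 to -3.77, and on the other 22, leaving out LFC week 3 and HFC week 12, from -4.86 to -2.16. The early arrays did not follow this: on the 5 with a low list Dlk1 ran from -3.45 to -0.41, the highest of all, and on the 4 with a high list from -2.17 to -1.85.

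Thy1 in HF20 was 2.33 at week 3, 3.04 at week 6, 3.57 at week 9, 2.60 at week 12, 2.88 at week 15 and 1.67 at week 18. It was below HFC in 6 of 6 weeks, although the 2 ranges overlapped. The difference was -0.75 (SE 0.34, 95% interval -1.46 to -0.04, unadjusted p = 0.0391, adjusted p = 0.780, limma). The second Thy1 probe gave -0.18 (unadjusted p = 0.569), so its size depended on the probe, and without LFC week 3 and HFC week 12 the first gave -0.66 (unadjusted p = 0.0646). The other 8 differences were Pdgfra -0.29, Pdgfrb -0.64, Dpp4 0.013, Pi16 -0.28, Cd34 -0.41, Zfp423 0.092, Ly6a -0.42 and Cd24a -0.29, with unadjusted p of 0.129 to 0.979.

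At 75 µg Thy1 and Pi16 had the smallest p-values. Thy1 in HF75 was 2.08 at week 3, 4.26 at week 6, 4.61 at week 9, 1.72 at week 12, 2.45 at week 15 and 1.87 at week 18. Pi16 in HF75 was -0.57 at week 3, 3.37 at week 6, 0.72 at week 9, 1.22 at week 12, -1.74 at week 15 and -0.40 at week 18. Thy1 was lower than HFC in 4 of 6 weeks, by -0.61 (95% interval -1.31 to 0.10, unadjusted p = 0.0910, limma), and its second probe gave -0.74 (unadjusted p = 0.0250). Pi16 was lower in 4 of 6, by -0.83 (-2.02 to 0.36, unadjusted p = 0.162). It was -1.31 (unadjusted p = 0.00373, adjusted p = 0.999) without week 6 and -0.51 without week 3. The other 7 differences, Pdgfra apart, were Pdgfrb 0.063, Dlk1 -0.53, Dpp4 -0.65, Cd34 -0.094, Zfp423 -0.17, Ly6a 0.38 and Cd24a 0.55, with unadjusted p of 0.214 to 0.879. The 2 Pdgfra probes parted here: the brightest gave 0.04 (-0.73 to 0.81) and the second, printed above, gave -1.27 (unadjusted p = 0.0447, adjusted p = 1.00). That second probe was dim, with a mean of -4.89 against 0.94 for the brightest. It was well above background on 33 arrays, against 38.

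For the mean of the 3 doses, 2 genes were higher than HFC and 8 lower, with a median of -0.10 (all probes -0.02), and 549 probes (1.75%) had an unadjusted p under 0.05. Thy1 differed by -0.47 (95% interval -1.05 to 0.11, unadjusted p = 0.105) and Dlk1 by -0.73 (-1.72 to 0.26, unadjusted p = 0.139), which was -1.17 (unadjusted p = 0.0253) without week 3. Differences of the other 8 were Pdgfra -0.085, Pdgfrb -0.050, Dpp4 -0.47, Pi16 -0.33, Cd34 -0.11, Zfp423 -0.045, Ly6a 0.11 and Cd24a 0.21, with unadjusted p of 0.265 to 0.881. Thy1 in HF5, the remaining dose, was 3.43 at week 3, 3.31 at week 6, 4.91 at week 9, 3.48 at week 12, 3.13 at week 15 and 1.97 at week 18. Dlk1 in HF5 was -2.67 at week 3, -2.97 at week 6, -4.13 at week 9, -3.48 at week 12, -3.23 at week 15 and -3.99 at week 18, and Dlk1 in HF75 was -3.40 at week 3, -2.58 at week 6, -4.07 at week 9, -3.77 at week 12, -4.86 at week 15 and -2.90 at week 18. The 14 reservoir genes were all lower than HFC in the mean of the doses, with a median of -0.44, and 15 of 17 general stromal fibroblast genes were lower, with a median of -0.24. In the same fit 10 of 10 adipocyte genes were higher, with a median of 0.47, and 13 of 15 cell cycle genes were lower. Without LFC week 3 and HFC week 12 the reservoir genes were again lower in 14 of 14 cases, with a median of -0.41, the stromal genes in 11 of 17, and the adipocyte median was 0.16. No gene of these lists passed the threshold. HFC stands on both sides of these values, above LFC and above the doses, so both rest on the same HFC arrays.

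**Figure D3:**
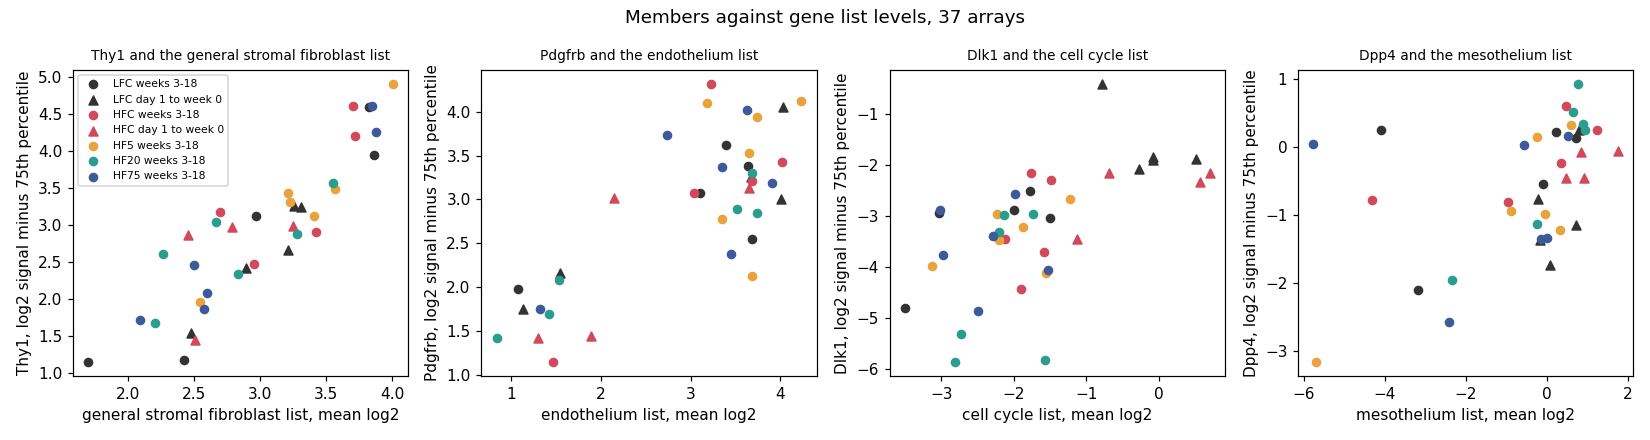
Level of 4 progenitor genes (vertical axis, log2 signal minus the 75th percentile) against the mean log2 level of a gene list (horizontal axis) on 37 arrays, LFC week 3 and HFC week 12 left out. Points are arrays, coloured by diet, with triangles for day 1 to week 0 and circles for weeks 3 to 18. Thy1 followed the stromal list (r = 0.89), Pdgfrb split with the endothelium list in weeks 3 to 18 but not on 2 of the early arrays, and Dlk1 and Dpp4 followed the cell cycle and mesothelium lists loosely (0.60 and 0.48).

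The time comparison set weeks 3 to 18 (late) against days 1 to 14 and week 0 (early) in LFC and HFC, to ask how progenitor genes changed as the young mice aged. Here 2.29% of 29577 probes passed the adjusted threshold, 238 higher and 439 lower late, and none of the 10 genes did. Dlk1 had the smallest p of the 10. Each time point was scanned on its own date or dates, so age and scan date cannot be told apart. By unadjusted p under 0.05 the fit held 18.6% of probes and 1 of the 10 genes. The genes split into 5 higher and 5 lower, with a median of 0.01 (all probes -0.03), and into 7 and 3 without LFC week 3 and HFC week 12.

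Dlk1 in LFC was -0.41 at day 1, -1.89 at day 6, -2.09 at day 10, -1.90 at day 14, -1.85 at week 0, -1.17 at week 3, -2.51 at week 6, -2.88 at week 9, -4.81 at week 12, -3.04 at week 15 and -2.95 at week 18. The 5 early LFC arrays averaged -1.63 (SD 0.68) and the 6 late ones -2.89 (SD 1.16). LFC week 3 was the only late array above an early one, and without it all late LFC values, -4.81 to -2.51, lay below all early ones, -2.09 to -0.41. In HFC the early range of -3.45 to -2.17 lay within the late range of -4.44 to -2.16. Over both diets Dlk1 differed by -0.94 (SE 0.43, 95% interval -1.84 to -0.05, unadjusted p = 0.0404, adjusted p = 0.247, limma with time point as a random block). It was -1.39 without LFC week 3 and HFC week 12, -0.30 with normexp background correction, and -0.97 (unadjusted p = 0.241) with week 0 alone against the later weeks.

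Within LFC, where 0.490% of 30418 probes were called, Dlk1 differed by -1.26 (SE 0.56, 95% interval -2.49 to -0.04, unadjusted p = 0.0433, adjusted p = 0.886, limma). It was -1.61 (unadjusted p = 0.00637) without LFC week 3, -0.88 without week 12 and -0.34 with normexp background correction. Of the 10 genes 3 were higher and 7 lower, with a median of -0.17 (all probes -0.09), and without LFC week 3 the split was 5 and 5, with a median of 0.02. Dpp4 had the next smallest p, at 0.55 (95% interval -0.64 to 1.73, unadjusted p = 0.334), and ran from 0.35 without day 14 to 0.97 without week 18. The 8 further genes gave Pdgfra 0.38, Pdgfrb 0.010, Pi16 -0.96, Cd34 -0.23, Zfp423 -0.055, Ly6a -0.22, Thy1 -0.12 and Cd24a -0.66, with unadjusted p of 0.347 to 0.983.

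Pdgfra had the next smallest p over both diets and did not pass the test. Pdgfra in LFC was 0.65 at day 1, -0.03 at day 6, 0.54 at day 10, 0.72 at day 14, 1.19 at week 0, 1.51 at week 6, 1.80 at week 9, 0.43 at week 12, 1.01 at week 15 and 0.22 at week 18. Pdgfra in HFC was -0.22 at day 6, 0.47 at day 10, 0.24 at day 14, 1.13 at week 0, 0.31 at week 3, 0.66 at week 6, 2.55 at week 9, 0.67 at week 12, 1.78 at week 15 and 0.93 at week 18. Early and late arrays overlapped in both diets. The difference was 0.54 (95% interval -0.10 to 1.19, unadjusted p = 0.0935, adjusted p = 0.345, limma), and it was 0.31 without week 9 and turned to -0.10 with week 0 alone as the early time. Late minus early was, for the other 8, Pdgfrb 0.38, Dpp4 0.30, Pi16 -0.14, Cd34 -0.036, Zfp423 0.059, Ly6a -0.058, Thy1 0.36 and Cd24a -0.67, with unadjusted p of 0.176 to 0.897.

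Within HFC, where 0% of 29397 probes were called, 8 genes were higher late and 2 lower, with a median of 0.15 (all probes 0.02). Thy1 differed by 0.87 (95% interval -0.17 to 1.91, unadjusted p = 0.0938) and Pdgfra by 0.74 (-0.27 to 1.75, unadjusted p = 0.133). Thy1 was at 0.50 without day 14 and Pdgfra at 0.46 without week 9. The other 8 differences were Pdgfrb 0.76, Dlk1 -0.53, Dpp4 0.071, Pi16 0.62, Cd34 0.15, Zfp423 0.15, Ly6a 0.095 and Cd24a -0.65, with unadjusted p of 0.174 to 0.830. Before adjustment 5097 probes (17.3%) had a p under 0.05 and none of the 10 genes did.

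Whether the diet difference itself moved from early to late was tested on the 10 HFC minus LFC pairs. It called 0% of 29168 probes, with 1499 (5.14%) at an unadjusted p under 0.05. The diet difference was higher late for 8 genes and lower for 2, with a median of 0.54, where all probes had a median of 0.15. Pdgfrb in LFC was 1.74 at day 1, 2.16 at day 6, 3.00 at day 10, 4.05 at day 14, 3.25 at week 0, 2.52 at week 3, 3.08 at week 6, 3.62 at week 9, 1.97 at week 12, 3.38 at week 15 and 2.54 at week 18. Its HFC minus LFC difference was higher late by 1.02 (95% interval -0.11 to 2.15, unadjusted p = 0.0723, adjusted p = 0.841, limma), and by 1.22 (unadjusted p = 0.0134) without LFC week 3 and HFC week 12. The early pairs at days 10 and 14 set LFC arrays with endothelium lists of 4.01 and 4.03 against HFC arrays with 1.31 and 2.15, and the part of this was not tested. For Thy1 the change was 1.26 (-0.14 to 2.65, unadjusted p = 0.0727), but only 0.17 by its second probe and 0.67 (unadjusted p = 0.255) without LFC week 3 and HFC week 12. For Pi16 it was 1.93 (-0.26 to 4.13, unadjusted p = 0.0782) and 1.44 (unadjusted p = 0.171) without them. The other 7 changes were Pdgfra 0.52, Dlk1 0.43, Dpp4 -0.86, Cd34 0.60, Zfp423 0.21, Ly6a 0.56 and Cd24a -0.18, with unadjusted p of 0.114 to 0.771.

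The genes around the 10 were taken from lists of pathway and cell type genes. In the late against early comparison 0 of 10 genes of platelet-derived growth factor signalling, 0 of 13 of the bone morphogenetic protein and Zfp423 circuit and 0 of 11 of the Notch, Gata and other genes grouped with Dlk1 as brakes on adipogenesis passed the threshold. Of the 13 circuit genes 11 were higher late. The values nearest to a call were Bmpr2, a receptor of the pathway, at 1.12 (SE 0.38, adjusted p = 0.122) and its ligand Bmp2 at 1.71 (SE 0.66, adjusted p = 0.174). The estimates within LFC and within HFC did not all share a sign. This does not show that the diets differed: the test of the diet difference from early to late called 0% of 29168 probes. Bmpr2 and Bmp2 were higher late within LFC too, at 0.86 and 1.19. Zfp521, Id3, Bmp4 and Wisp2 were at 0.88, 0.71, 0.66 and 0.90 within HFC but at -0.16, -0.37, -0.13 and -0.51 within LFC. The reservoir (0 of 14), committed (0 of 13), regulatory (0 of 8) and general stromal (0 of 17) lists held no call either.

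Imprinted growth genes, the class to which Dlk1 belongs, were lower late in 13 of 17 cases, with a median of -0.71. Peg3, a zinc finger gene expressed from the paternal copy, was the 1 that passed the threshold and fell by 1.59 on the log2 scale (SE 0.42, adjusted p = 0.0467, limma). That call held in 6 of 24 alternative settings, and no imprinted gene was called without LFC week 3 and HFC week 12, where 12 of 17 were lower. H19 was at -2.17 (adjusted p = 0.0883) and Mest at -1.50 (adjusted p = 0.103), while Impact was higher late, at 0.67 (adjusted p = 0.105, limma). Meg3, Rian and Mirg, the noncoding genes of the Dlk1 locus, were at -0.56, -0.65 and -0.72, with adjusted p of 0.437, 0.447 and 0.251. Within LFC 15 of 17 were lower and none passed. Within HFC the list was more mixed. There Peg3 was at -1.61, H19 at -1.87 and Mest at -1.27, but Meg3 at 0.05, Igf2 at 0.42, Cdkn1c at 0.72 and Dio3 at 0.74.

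Cell cycle genes fell in the same comparison: 12 of 15 were lower late past the threshold and none higher, with a median of -2.23, and 10 of 15 were without LFC week 3 and HFC week 12. Cdc2a, the cyclin-dependent kinase of mitosis, fell by 2.82 on the log2 scale, its partner Ccnb1 by 2.51 and the mitotic kinase Plk1 by 2.25. The mean of the list ran from -0.79 to 0.51 on early and from -3.50 to -1.50 on late LFC arrays, with no overlap. In HFC the early range was -1.13 to 0.70 and the late range -2.13 to -1.13. Dlk1 correlated with this list at r = 0.60 (rho = 0.62) over 37 arrays, but at 0.18 once time point means were removed. The mesothelium list was lower late in 7 of 7 genes, with a median of -1.69, and Krt8 passed the threshold, though no gene of the list did without LFC week 3 and HFC week 12. The neutrophil list was higher late in 8 of 8, with a median of 1.73 and no call.

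From week 3 to week 18 none of the 10 genes had a slope past the adjusted threshold. A slope over 5 diets called 0% of 31450 probes, with 973 (3.09%) at an unadjusted p under 0.05, and 3 genes sloped up and 7 down. Pi16 in HF20 was 0.06 at week 3, 1.89 at week 6, 1.93 at week 9, 1.76 at week 12, -0.30 at week 15 and 0.57 at week 18, and Pi16 in HF5 was 1.55 at week 3, 0.58 at week 6, 3.08 at week 9, 1.61 at week 12, 1.23 at week 15 and 0.25 at week 18. Its slope was -0.10 per week (95% interval -0.21 to 0.02, unadjusted p = 0.0924, limma). That of Thy1 was -0.07 (-0.16 to 0.01, unadjusted p = 0.0926), and its second probe gave -0.085 (unadjusted p = 0.0149, adjusted p = 1.00). Both slopes rested on the weeks used: without week 3 Thy1 sloped by -0.18 (unadjusted p = 0.000883, adjusted p = 0.356) and Pi16 by -0.23 (unadjusted p = 0.00351, adjusted p = 0.480), and without week 18 Thy1 was at -0.011. The other 8 slopes were Pdgfra -0.00029, Pdgfrb -0.0014, Dlk1 -0.048, Dpp4 0.034, Cd34 -0.0062, Zfp423 0.0072, Ly6a -0.017 and Cd24a 0.062, with unadjusted p of 0.213 to 0.994.

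Part of the genes shared a high week. Cd34 and Thy1 were highest at week 9 among the 6 weeks in 5 of 5 diets, Pdgfra in 4 and Pdgfrb and Pi16 in 3. Dpp4 was highest there in 2 diets, Ly6a in 1, and Dlk1, Zfp423 and Cd24a in 0. At week 9 Cd34 averaged 6.58 (SD 0.35, n = 5) and at week 12 it averaged 4.98 (SD 0.71). Thy1 averaged 4.46 (SD 0.51) at week 9 and 2.44 (SD 0.99) at week 12, Pdgfra 2.31 (SD 0.41) and 0.89 (SD 0.81), and Pdgfrb 3.82 (SD 0.40) and 2.31 (SD 0.87). The lowest week 9 value of Thy1, 3.57, lay above the highest of week 12, 3.48, while for Cd34 the lowest week 9 value of 6.04 fell just under HF5 week 12 at 6.06. The endothelium list did not peak at week 9, where it ran from 2.73 to 3.68, against 3.51 to 3.69 at week 15. At week 12 it was 1.07 in LFC, 0.84 in HF20 and 1.32 in HF75, but 3.06 in HFC and 3.65 in HF5. In HF5 Pdgfrb was at 3.53 at week 12, while Cd34 fell from 6.94 at week 9 to 6.06 and Thy1 from 4.91 to 3.48. In HFC Cd34 fell from 6.61 to 5.19 and Thy1 from 4.60 to 3.24, but HFC week 12 is an array that stands apart. It also enters the week 12 means above. The part of this list in the week 12 values was not tested. Ly6a did not peak with Cd34 and Thy1, but it was lowest at week 12 in 4 of 5 diets, at a mean of 1.54 (SD 0.91). Pdgfra in HF5 was 0.14 at week 3, -0.04 at week 6, 2.27 at week 9, 2.24 at week 12, 2.28 at week 15 and -0.03 at week 18, so that here week 9 was level with weeks 12 and 15. Pdgfra in HF20 was 0.39 at week 3, 0.44 at week 6, 2.07 at week 9, 0.17 at week 12, 1.92 at week 15 and 0.17 at week 18, and Pdgfra in HF75 was 0.46 at week 3, 2.05 at week 6, 2.84 at week 9, 0.95 at week 12, 0.70 at week 15 and 0.12 at week 18. These weeks were singled out after their values were seen and no test was made of them. The week 9 arrays shared a scan date that held no other week, so week and scan cannot be told apart. They were also dim, with a 75th percentile of signal of 119 to 686, against 890 to 1515 at week 12. HF5 week 9, the dimmest array (119, median rank correlation 0.902), gave the highest Cd34 and Thy1 values of all. The part of array brightness in the week 9 values was not tested.

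Day 14 and week 0 give a view of how far 2 arrays of the same diet and time differed. The median absolute difference over the 10 genes was 0.52 in LFC, with Pi16 the largest at 2.22, and 0.68 in HFC, with Thy1 the largest at 1.54.

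The 7 endothelium genes on the array (among them Pecam1, Cdh5 and Kdr) split 37 arrays into 11 with a mean of 0.84 to 2.15 and 26 with 2.73 to 4.24. The 11 were LFC days 1 and 6 and week 12, HFC days 6, 10 and 14 and week 3, HF20 weeks 6, 12 and 18 and HF75 week 12, and the adipocyte list was at 4.76 or more on each. Some of the 26 shared this: the adipocyte list was at 5.07, 4.84 and 5.40 on LFC, HFC and HF5 week 18. It was at 4.81 and 5.09 on HF20 and HF75 week 3. In weeks 3 to 18 Pdgfrb ran from 1.14 to 2.08 on the 6 low arrays and from 2.12 to 4.32 on the other 22, with no overlap. Over all 37 arrays the sets did overlap, since on the low arrays of HFC day 14 and LFC day 6 Pdgfrb was at 3.01 and 2.16. In weeks 3 to 18 Cd34 ran from 4.03 to 5.44 against 5.00 to 6.94, and Ly6a from 0.33 to 2.41 against 2.13 to 4.48. Zfp423 showed no such split, with medians of -1.35 and -1.38. Pdgfrb in HF20 was 2.85 at week 3, 1.69 at week 6, 3.31 at week 9, 1.42 at week 12, 2.89 at week 15 and 2.08 at week 18, and Pdgfrb in HF75 was 2.37 at week 3, 3.37 at week 6, 3.74 at week 9, 1.75 at week 12, 4.02 at week 15 and 3.18 at week 18. Within the 26 high arrays Pdgfrb and the endothelium list correlated at r = 0.00, and within the 11 low ones at 0.53, as a description. The part of this split in the other comparisons was not tested.

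Over the 37 arrays (36 for Pi16), a core of stromal genes moved together. The closest pairs were Pdgfrb and Cd34 (r = 0.71), Pdgfra and Thy1 (0.66), Cd34 and Thy1 (0.66), and Pi16 and Thy1 (0.60). Of 45 pairs 10 had r above 0.5 and 13 had r below 0, and the median was 0.15. Zfp423, Dpp4, Cd24a and Dlk1 stood mostly outside this core, though Dpp4 reached 0.50 with Pdgfra and Cd24a 0.49 with Dlk1. Pi16 was close to Thy1, but at 0.12 with Pdgfrb, 0.12 with Cd34 and 0.11 with Ly6a. With time point means removed Pdgfra was at 0.14 with Pdgfrb and 0.33 with Cd34, while Pdgfrb and Cd34 were at 0.77. Genes on an array share its tissue, its RNA and its scan, so these are descriptions.

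Set against cell type lists, Thy1 followed the general stromal fibroblast list (Col1a1, Col3a1, Dcn and others, none of them among the 10) at r = 0.89 (rho = 0.88). It was 0.87 without the 2 arrays farthest from the median and 0.78 with time point means removed. Pdgfra reached 0.72, Cd34 0.70, Pdgfrb 0.65, Ly6a 0.63 and Pi16 0.55 with the same list. Against the adipocyte list Pdgfra was at -0.64 and Ly6a, Thy1 and Pdgfrb were each at -0.57. Dpp4 went about equally with the macrophage list, at 0.48 (rho = 0.50, and 0.55 with time point means removed), and the mesothelium list, at 0.48 (rho = 0.53, and 0.52), and reached 0.40 with the T cell list. Pi16 reached 0.54 with the T cell list, Zfp423 ran against it at -0.48, and Cd24a went with the mural list at 0.56 and the neutrophil list at 0.50.

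**Figure D4:**
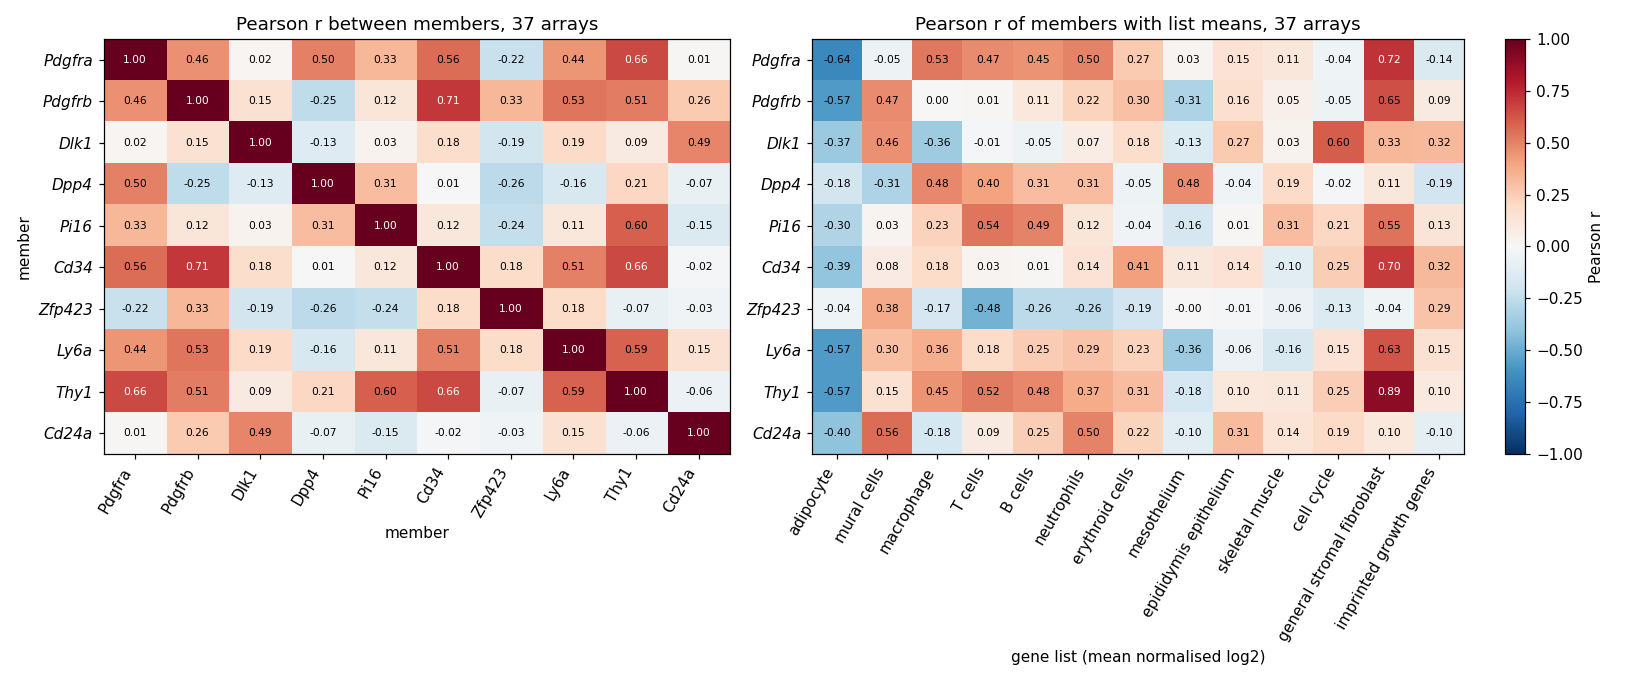
Pearson's r over 37 arrays (36 for Pi16) between the 10 progenitor genes (left) and between each gene and the mean level of 13 gene lists (right), with the value printed in each square and colour from -1 (blue) to 1 (red). The endothelium list is left out because its arrays fall in 2 sets. The general stromal fibroblast column is the reddest, up to 0.89 for Thy1, and Zfp423 has no value above 0.38 with any list shown.

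The genes most like each member over the same arrays, out of 13951 compared, were named by Pearson's r. For Pdgfra they were Tmeff2 (0.88), Larp6 (0.86) and the Hedgehog pathway factor Gli3 (0.86). For Thy1 they were Mrgprf (0.88), Thbs3 (0.85) and the peptidase gene Anpep (0.85). For Pi16 they included the fibrillar collagens Col1a2 (0.75) and Col5a1 (0.74), after Lynx1 (0.75). Pdgfrb was closest to A4galt (0.88), Cd34 to Glt25d2 (0.84) and Ly6a to I830127L07Rik (0.91), followed by the interferon-induced Ifitm3 (0.88). Dlk1 was closest to Stmn1 (0.74), a tubulin-binding protein of dividing cells, and Dpp4 to Il18 (0.82), Nr1h4 (0.80) and Ogn (0.75). Cd24a was closest to Sgsm1 (0.83), and Zfp423, with the weakest likeness, to Hmgn3 (0.70).

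Promoters are shown for 2 genes of the core that moved together, Cd34 and Pdgfra (r = 0.56), and for Dlk1, which did not move with them. The RefSeq table held promoters for 6 of the 10 genes, on build GRCm38.p6. Each line is the 250 bases before the annotated start, 5′ to 3′ on the plus strand, at chr1:194938571-194938820 for Cd34, chr5:75152001-75152250 for Pdgfra and chr12:109452573-109452822 for Dlk1. Capitals mark GATAA, the core letters bound by Gata factors.
Cd34: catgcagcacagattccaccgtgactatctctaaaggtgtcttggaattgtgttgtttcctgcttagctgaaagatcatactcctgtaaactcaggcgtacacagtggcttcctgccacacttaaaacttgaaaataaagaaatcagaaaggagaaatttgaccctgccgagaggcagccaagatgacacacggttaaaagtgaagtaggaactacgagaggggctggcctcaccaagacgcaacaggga
Pdgfra: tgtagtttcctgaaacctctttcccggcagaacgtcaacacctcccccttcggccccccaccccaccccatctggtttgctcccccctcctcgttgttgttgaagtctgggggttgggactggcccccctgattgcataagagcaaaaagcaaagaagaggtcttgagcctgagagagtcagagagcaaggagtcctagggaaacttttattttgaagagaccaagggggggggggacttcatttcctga
Dlk1: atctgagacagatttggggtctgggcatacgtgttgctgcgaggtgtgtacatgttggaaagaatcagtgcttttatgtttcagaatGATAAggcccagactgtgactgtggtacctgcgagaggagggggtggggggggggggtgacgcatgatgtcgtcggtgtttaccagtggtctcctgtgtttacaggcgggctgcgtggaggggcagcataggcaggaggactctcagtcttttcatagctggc

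Each window of 250 bases before the start was searched on both strands for 4 motifs that do not contain one another. They were the TATA box as TATAAA, the CCAAT box as CCAAT, the GC box as GGGCGG and the Gata core as GATAA. Cd34 and Pdgfra held none of the 4. Dlk1 held 1 GATAA, Pi16 held 1 CCAAT, Zfp423 held GGGCGG, and Dpp4 held 1 TATAAA and 1 GATAA. Of 32851 promoters of the same length 12.4% held TATAAA, 33.8% CCAAT, 32.7% GGGCGG and 22.6% GATAA. These are matches of letters and not binding sites.

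Over the 11 comparisons the 10 genes gave 110 tests, of which 5 had an unadjusted p under 0.05 and none passed the adjusted threshold. The 5 were Thy1 in HFC against LFC over weeks 3 to 18, Dlk1 and Thy1 in HF20 against HFC, and Dlk1 in both late against early comparisons that include LFC. The share of all probes with such a p was 2.31% in HFC against LFC over weeks 3 to 18, 4.84% in HF20 against HFC, 18.6% in late against early over both diets and 5.52% within LFC.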

How the data were processed

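Scanner files of 39 one-colour Agilent arrays (Cy3) were read. The processed signal intensity deposited by the authors is Feature Extraction output, already background-corrected, with software version 9.1 in the submitters' processing notes and 10.5.1.1 per the file headers. The authors also deposited processed log2 values, each relative to LFC at that time (correlation with scanner differences 0.992 to 1.00 over 28 arrays). These served as an alternative, and their direction and scale follow from that match. The number of columns of other samples was 0.

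Control spots were left out, outlier spots were set missing, spots of a probe were averaged, and log2 signals had each array's 75th percentile subtracted. limma 3.58.1 (lmFit and eBayes, two-sided) in R 4.3.3 with the data.table package (1.17.8) was fitted over the probes that rose well above background on 10 or more of 20 arrays (10 time points), 10 of 21 (late against early), 6 of 30 (weeks 3 to 18) or 5 (within LFC or HFC). Time point was a fixed block in diet comparisons. It was a random block in late against early over both diets and in the slope over weeks 3 to 18. The fits within LFC, within HFC and on the HFC minus LFC pairs had no block. P-values were Benjamini-Hochberg adjusted with a threshold of 0.05. All 10 genes were named in each comparison, with every array given for the 2 smallest p-values in each. List genes were named up to 4 per list by p, and Meg3, Rian and Mirg also for their place at the Dlk1 locus. The 3 most like genes were found for each of the 10. The members and lists were chosen with earlier results of these data known. The number of arrays limits precision, and nothing says that arrays hold separate animals, so p-values measure the spread between arrays. The titles of the LFC, HF20 and HF75 week 12 arrays do not name the week, which came from the time label. The arrays lay on 32 slides, 7 of them with 2 arrays, and had 13 scan dates. Alternatives were normexp background correction, median and quantile scaling, filters, array weights, slide, scan date and time point blocks, and leaving out each time point. The scripts were tested on simulated data.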

Additional observations from a re-analysis of the deposited data

Results flagged for a closer look

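Among the 44 sets of 4 to 10 arrays (a gene within a diet), 3 had an end value whose gap to the next was large for the range of the set. Chance gives about 1 in 20 such sets. Cd34 in HFC was highest at week 9, at 6.61, and the next HFC array was at 5.82. Zfp423 in HF20 was highest at week 18, at -0.70, with the next at -1.13. Zfp423 in HF75 was highest at week 15, at -0.42, with the next at -1.36.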

How the results depend on the processing

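No progenitor gene passed the adjusted threshold under the alternatives tried for 10 of the 11 comparisons. In the other, late against early within HFC, limma's array weights gave 1 called gene where the equal-weight fit gave 0: Pdgfrb at 1.32 (adjusted p = 0.0471), in a fit that called 8023 probes against 0. Leaving out each time point in turn left the count of called genes at 0 to 0 in every comparison. The Pdgfra difference between late and early turned from 0.54 to -0.10 with week 0 alone as the early time. The Dpp4 difference within LFC turned to a slope of -0.000158 per day as a linear trend. With each week left out in turn the Pdgfrb difference of HF5 from HFC ranged from -0.049 without week 3 to 0.73 without week 15, and with median scaling it was 0.81. The causes were not tested. Without the time point as a block (no replicate block) no gene gained or lost a call: Dlk1 late against early was -0.92, and Thy1 in HFC against LFC over weeks 3 to 18 was 0.93 with an unadjusted p of 0.140 in place of 0.0124.

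Counts over all probes moved more. The late against early count of 677 in LFC and HFC was 3 with normexp background correction, 1071 without the block, 4409 with array weights, 232 without LFC week 3 and HFC week 12, 167 without week 6 as well (chosen after seeing the data), 0 with week 0 alone, and 181 to 2457 with a time point left out. The count of 149 within LFC ranged from 0 to 331. The count of 0 within HFC was 823 without week 0 and 41 with median scaling. The trend count of 0 was 13 without the block. Leaving out the time points where the HFC and LFC endothelium lists differed by over 1 was also chosen after seeing the data. It changed no call. The same time points were left out for the KAL-1 groups, where weeks 6 and 18 of HF20, with lists of 1.43 and 1.54, stayed in. The full fits held no call, so unchanged calls cannot show the part of the endothelium split. Single arrays per diet and time limit what could be found: the median SE of a probe was 0.29 for the diet over 10 time points and 0.43 over weeks 3 to 18.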
